A study of Homo sapiens with 6 samples.

Results

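The EGF receptor family and its ligands were followed in the glioblastoma cell line U87-MG. Libraries of negative control cells were compared with libraries labelled as a CHRM knockdown. The members were 9 genes chosen by name, with earlier results of these data known, out of 61731 genes and loci in the deposited table. They comprise the receptors EGFR, ERBB2 and ERBB3 and the ligands HBEGF, AREG, EREG, TGFA, BTC and NRG1. Receptors of this family are tyrosine kinases of the cell surface that pair with each other when a ligand binds, and the pair then signals through the RAS-ERK and PI3K-AKT pathways. The ligands are made as membrane-anchored precursors, and proteases of the ADAM family cut them free. EGFR is often amplified in glioblastoma, and G protein-coupled receptors such as the muscarinic receptors are known to activate it by releasing its ligands.

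Total RNA was profiled in 3 libraries of each group, all from U87-MG, an established human glioblastoma line. Control cells carry the genotype label of a normal control and are the negative control of the study. The other cells carry the label of a CHRM knockdown. According to the study the target was CHRM3, which encodes the muscarinic acetylcholine receptor M3, and lentivirus was the vector. Which of the study's KD sequences they carried, and whether all 3 libraries carried the same one, is not given in the sources used here. Replicates are numbered in the labels without a statement that they came from separate cultures, so the p-values below measure only the spread between these libraries. The values are TPM, which take gene length into account and give the share of each gene in a library scaled to a fixed total. The number of reads behind a value cannot be read from TPM, so the depth is unknown and no counting error can be given. In bulk RNA, fewer cells that express a gene and less of its RNA per cell cannot be told apart.

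CHRM3 was listed at 0.02, 0.09 and 0.13 TPM in control replicates 1, 2 and 3 and at 0.13, 0.01 and 0.02 TPM in the libraries labelled as knockdown. These groups overlapped (exact two-sided permutation p = 0.80, with 0.10 the smallest p that 3 against 3 allow), so the level of the target did not check the labels, and each direction below is that of the knockdown-labelled libraries against the controls. The labelled line was compared with its markers. CDKN2A and CDKN2B, which U87-MG has lost, were listed at 0 in all 6 libraries, and MTAP was at 0.01 TPM or less. The mesenchymal markers VIM and CD44 were abundant, at 6528 to 7451 and 459.0 to 619.7 TPM. The astrocyte marker GFAP stood at 0.87 to 1.46 TPM and AQP4 was listed at 0. Among the remaining glioma markers, CHI3L1 was at 31.9 to 45.03 TPM and NES at 1.98 to 4.01 TPM. S100B, SOX2 and OLIG2 were at 0.56 TPM or less. At a limma adjusted p under 0.05, CD44 was lower in the knockdown-labelled libraries (log2 fold change -0.33). VIM (0.17), NES (0.5) and CHI3L1 (0.42) were higher. The call of VIM was lost with quantile normalization and that of NES with no limit on low values. Of other cell types, TYROBP, CD3E and CLDN5 were listed at 0 in all 6 libraries, the 4 endothelial markers summed to 0.25 TPM at most, and the 5 epithelial markers summed to 0.76 to 1.17 TPM in the controls and 1.16 to 1.61 TPM in the knockdown-labelled libraries. The 6 leukocyte markers summed to 250 to 254.5 TPM in the controls and to 170.8 to 177.6 TPM in the knockdown-labelled libraries, nearly all of it CD68, a lysosomal protein, which fell by 0.54 on the log2 scale (limma adjusted p = 2e-05). LAPTM5, under 1 TPM throughout, was also lower without overlap (0.83 to 0.91 against 0.38 to 0.52 TPM). Their part in the results below was not tested. Mitochondrially encoded genes took 5.32% to 5.47% of TPM in the controls and 4.41% to 4.87% in the knockdown-labelled libraries. With these genes left out, the same number of members passed the test as with them.

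To see which of the family changed, log2(TPM + 1) was compared with limma over 13722 genes whose mean reached 1 TPM, and a gene was called at a Benjamini-Hochberg adjusted p under 0.05. In the limma fit, the ligand EREG and the less abundant ligand BTC fell in the knockdown-labelled libraries, HBEGF and NRG1 rose, and EGFR fell slightly. ERBB2 and TGFA were tested and did not pass. ERBB3 and AREG were under 1 TPM in every library and were not tested. Of the 7 members tested, 3 were called lower and 2 higher, where 36.1% of all genes tested were called, 24.0% lower and 12.1% higher. Since the members were chosen with earlier results known, their count beside this background is only a description. Another scaling moved that background, since 66.5% of all calls were lower with TPM as deposited, 49.1% with median-of-ratios scaling and 50% with quantile normalization. BTC passed the limit of 1 TPM only through the controls, and is therefore counted here without support from its direction. The values of the groups did not overlap for 6 of the 7 tested members, 4 of them lower and 2 higher, where 50.2% of all genes tested did not overlap, 32.8% lower and 17.4% higher. The median log2 fold change was -0.20 over the tested members, which is the value of EGFR, and -0.06 over all genes tested. It was 0.41 over the 5 tested ligands and -0.26 over the 2 tested receptors, so the median of all members describes no shared direction. On the scale of log2(TPM + 1), no tested member reached a log2 fold change of 1 in size. Of all genes tested, 1.87% did so with an adjusted p under 0.05. The pseudocount of 1 shrinks changes at low levels. In mean TPM, BTC fell from 1.56 to 0.77, and ERBB3, which was not tested, went from 0.203 to 0.043.

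**Figure D1:**
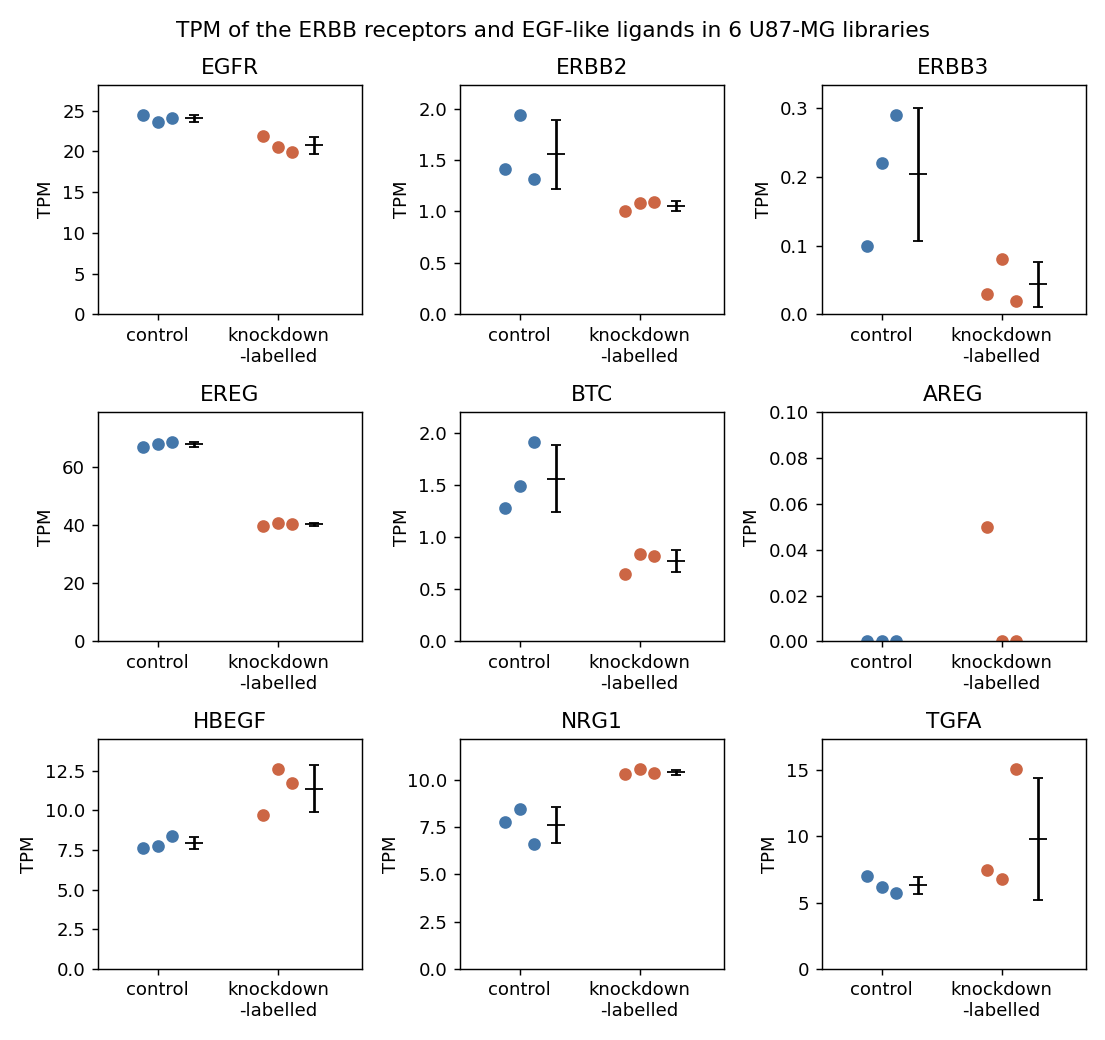
Each panel plots the TPM of 1 member on its own axis from 0, with 1 point per library (3 controls in blue, 3 knockdown-labelled libraries in orange) and the mean with its SD beside them, which is left out for AREG because most of its values are listed at 0. EREG and BTC sit lower in every knockdown-labelled library, HBEGF and NRG1 sit higher, and 1 knockdown-labelled library stands alone at 15.09 TPM for TGFA.

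Among the receptors, EGFR carried nearly all of the transcripts. EGFR, the receptor of EGF and of most ligands described here (ENSG00000146648, chromosome 7 from 55019021 to 55211628, plus strand, GRCh38), was at 24.47, 23.56 and 24.07 TPM in the controls and at 21.83, 20.52 and 19.85 TPM in the knockdown-labelled libraries. Each knockdown-labelled library lay under each control. The mean fell by 13.7%, from 24.0 ± 0.456 to 20.7 ± 1.01 TPM (SD, n = 3 each). In limma this was -0.20 on the log2 scale (standard error 0.0458, adjusted p = 0.0148). This call was lost with median-of-ratios scaling (log2 fold change -0.14, limma adjusted p = 0.0629) and with quantile normalization (-0.12, adjusted p = 0.0906). It was also lost without control replicate 1, where the log2 fold change was -0.19 and the limma adjusted p was 0.0532. EGFR-AS1, annotated on the opposite strand within EGFR, was at 0.09 TPM or less in every library. EGFR made up 93.2% ± 1.38 of the summed TPM of the 3 receptors in the controls and 94.9% ± 0.493 in the others (SD, n = 3 each).

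ERBB2, the family member without a known ligand of its own and the preferred partner of the others (ENSG00000141736, chromosome 17 from 39687914 to 39730426, plus strand), was at 1.41, 1.94 and 1.32 TPM in the controls and 1.0, 1.08 and 1.09 TPM in the knockdown-labelled libraries. The groups did not overlap, but the controls were spread widely for so low a level. Its log2 fold change was -0.31 with a 95% interval from -0.64 to 0.03 (limma adjusted p = 0.139), so neither a fall nor a lack of change was shown. ERBB2 overlaps MIEN1 and PGAP3 on the opposite strand, and whether the counting used strand is not given in the sources used here. MIEN1, at 58.07 to 65.39 TPM, was far more abundant than ERBB2, and limma put its change at -0.10 on the log2 scale (adjusted p = 0.0763). PGAP3 was at 2.77 to 3.83 TPM and did not pass either (log2 fold change -0.06).

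ERBB3, a receptor for neuregulins whose own kinase is weak (ENSG00000065361, chromosome 12 from 56076799 to 56103505, plus strand), was at 0.10, 0.22 and 0.29 TPM in the controls and at 0.03, 0.08 and 0.02 TPM in the knockdown-labelled libraries. Every knockdown-labelled value was under every control value, which gives the smallest exact two-sided permutation p that this design allows (p = 0.10). In limma fits that admitted lower genes it did not pass, with adjusted p of 0.119 with no limit on low values and 0.186 with a limit of 0.1 TPM. The fourth receptor, ERBB4, was outside the chosen set and was at 0.05 TPM or less in every library. The reads behind such low levels are unknown.

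Of the ligands, EREG was the most abundant member in every library and had the largest log2 fold change of TPM + 1 among the tested members. With a pseudocount of 0.1 that of BTC was larger (-0.92 against -0.75). EREG encodes epiregulin, which binds EGFR and ERBB4 (ENSG00000124882, chromosome 4 from 74365143 to 74388751, plus strand). It was at 66.86, 67.75 and 68.49 TPM in the controls and at 39.62, 40.61 and 40.28 TPM in the knockdown-labelled libraries. The replicates of each group lay close together, and the groups stood far apart. The mean fell by 40.7%, from 67.7 ± 0.816 to 40.2 ± 0.504 TPM (SD, n = 3 each). On the log2 scale limma gave -0.74 (standard error 0.0269, adjusted p = 1.15e-05). Over 16 alternative fits the log2 fold change of EREG ranged from -0.75 to -0.66 and the limma adjusted p from 5.8e-06 to 0.000925.

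BTC encodes betacellulin, another ligand of EGFR and ERBB4 (ENSG00000174808, chromosome 4 from 74744759 to 74794686, minus strand). It was at 1.28, 1.49 and 1.91 TPM in the controls and at 0.65, 0.84 and 0.82 TPM in the knockdown-labelled libraries, with no overlap. The mean fell by 50.6%, from 1.56 ± 0.321 to 0.77 ± 0.104 TPM (SD, n = 3 each). On the log2 scale limma gave -0.53 (standard error 0.148, adjusted p = 0.0337). The call was a narrow one. It was lost in 8 of 15 alternative limma fits, including 5 of the 6 with a single library removed. Only the fit without control replicate 1 kept it. With control replicates 2 or 3 or knockdown replicates 1, 2 or 3 left out, the limma adjusted p was 0.0777, 0.0993, 0.0874, 0.0678 and 0.0679. With the replicate block it was 0.0657, with quantile normalization 0.0577, and with no limit at all on low values 0.0661, while a limit of 0.1 TPM kept the call (0.0267). The log2 fold change was -0.92 with a pseudocount of 0.1, which shows how far the pseudocount of 1 shrinks the change of a gene at this level.

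AREG encodes amphiregulin, a ligand of EGFR alone (ENSG00000109321, chromosome 4 from 74445134 to 74455009, plus strand). It was listed at 0 in 5 libraries and at 0.05 TPM in knockdown replicate 1. The start of AREG lies 80.0 kb from that of EREG on the same strand, and these neighbours stood at opposite ends of the family in level.

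The sequences before the start sites of 4 ligands are shown, with EREG and BTC called lower, HBEGF called higher and AREG near 0. TGFA, whose log2 fold change was larger than that of HBEGF but did not pass, is not printed. Each sequence holds the 250 bases before the RefSeq start (GRCh38.p14), printed 5′ to 3′ on the strand of the gene. The letters of any searched motif are in capitals. The windows lie at chr4:74364895-74365144 for EREG (plus strand), chr4:74794524-74794773 for BTC (minus strand), chr4:74444886-74445135 for AREG (plus strand) and chr5:140346604-140346853 for HBEGF (minus strand).
EREG: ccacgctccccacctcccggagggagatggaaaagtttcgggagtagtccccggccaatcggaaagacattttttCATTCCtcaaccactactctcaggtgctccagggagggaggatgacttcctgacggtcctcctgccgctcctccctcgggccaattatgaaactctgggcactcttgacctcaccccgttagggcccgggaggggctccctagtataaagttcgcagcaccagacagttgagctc
BTC: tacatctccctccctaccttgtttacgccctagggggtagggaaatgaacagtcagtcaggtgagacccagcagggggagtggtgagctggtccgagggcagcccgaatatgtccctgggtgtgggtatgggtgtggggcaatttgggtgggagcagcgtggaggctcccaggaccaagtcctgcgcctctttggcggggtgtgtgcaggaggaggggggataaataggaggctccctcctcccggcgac
AREG: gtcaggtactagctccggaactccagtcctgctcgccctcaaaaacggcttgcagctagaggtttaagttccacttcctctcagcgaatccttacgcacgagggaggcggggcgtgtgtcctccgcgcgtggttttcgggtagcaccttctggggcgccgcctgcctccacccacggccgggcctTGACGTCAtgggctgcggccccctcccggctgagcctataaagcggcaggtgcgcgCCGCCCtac
HBEGF: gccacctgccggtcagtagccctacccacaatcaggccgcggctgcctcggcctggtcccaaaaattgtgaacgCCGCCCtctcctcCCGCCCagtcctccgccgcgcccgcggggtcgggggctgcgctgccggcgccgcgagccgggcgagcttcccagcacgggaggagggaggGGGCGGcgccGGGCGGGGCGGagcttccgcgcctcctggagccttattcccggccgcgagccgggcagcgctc
The motifs searched on both strands were AP-1 (TGANTCA), CRE (TGACGTCA), TEAD (GGAATG) and Sp1 (GGGCGG), in windows of 250 bases before and 50 after the start. Of 35116 such windows in the RefSeq table, 7.71% held the AP-1 letters, 1.85% the CRE letters, 14% the TEAD letters and 45% the Sp1 letters. Entries were taken for 7 of the 9 members, all but ERBB3 and NRG1. EREG held 1 TEAD match and none of the others. HBEGF held 5 Sp1 matches, of which the last 2 overlap by 1 base. TGFA held 4 Sp1 matches at its upstream start and no match at a second annotated start. AREG, which was near 0 in these cells, held the only CRE match among these 7 members and 1 Sp1 match. In BTC the only match was 1 Sp1 site after the start. The GC content of the whole windows was 57.7% for EREG, 63.0% for BTC, 66.3% for AREG and 75.0% for HBEGF, beside a median of 58.7% over all windows. It was 75.3% at the upstream starts of both TGFA and EGFR, and 63.0% and 42.0% at their second starts. Of the receptors, EGFR held 3 Sp1 matches at its upstream start and 2 AP-1 matches and 1 TEAD match at a second annotated start, and ERBB2 held 1 AP-1 match. These are matches of letters and do not show that a factor binds there.

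EREG, AREG and BTC share a stretch of chromosome 4 with the CXCL chemokine genes. From CXCL8 to BTC, over 1054 kb, 24 genes of the table lie within the interval, 14 of them protein-coding, and 8 were tested. Of these 8, 6 were lower by limma and 2 did not pass, and none was higher, beside 24.0% lower among all genes tested. The lower genes were CXCL8, CXCL1, CXCL2, EREG, ENSG00000249942 and BTC. This count is a description and carries no support, since the interval was bounded by CXCL8 and BTC with their values known, the study picked CXCL1 and CXCL8 from these libraries, EREG and BTC are members, and BTC and ENSG00000249942 passed the limit of 1 TPM only through the controls. Of the 3 genes that remain, CXCL2 was lower (-0.56 on the log2 scale, limma adjusted p = 0.00451) and CXCL3 and MTHFD2L did not pass. With quantile normalization 5 of the 8 were lower, because BTC no longer passed. ENSG00000249942, annotated as an antisense gene with its start 224.3 kb beyond that of EREG, was at 1.82, 1.67 and 2.04 TPM in the controls and at 0.43, 0.56 and 0.46 TPM in the knockdown-labelled libraries. Its groups were well apart (-0.94 on the log2 scale, standard error 0.131, limma adjusted p = 0.0023). CXCL3 had a log2 fold change of 0.01 and MTHFD2L, a mitochondrial enzyme of folate metabolism, of -0.13 (limma adjusted p = 0.124). EPGN, the gene of the EGFR ligand epigen, starts 56.7 kb before EREG and was at 0.43 TPM or less in every library. Thus EREG was the only abundant EGF-like ligand of this interval, and its fall was smaller than those of CXCL8 (log2 fold change -2.06) and CXCL1 (-1.40), a difference that was not tested.

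HBEGF and NRG1 moved in the other direction. HBEGF encodes heparin-binding EGF-like growth factor, a ligand of EGFR and ERBB4 and the ligand best known for release after stimulation of G protein-coupled receptors (ENSG00000113070, chromosome 5 from 140332843 to 140346631, minus strand). It was at 7.65, 7.78 and 8.37 TPM in the controls and at 9.74, 12.61 and 11.76 TPM in the knockdown-labelled libraries. Knockdown replicate 1 was the lowest of its group but was still above every control. The mean rose by 43.3%, from 7.93 ± 0.384 to 11.4 ± 1.47 TPM (SD, n = 3 each). The limma estimate was 0.46 on the log2 scale (standard error 0.0960, adjusted p = 0.0111). In 16 alternative fits it stayed past the threshold, with log2 fold changes from 0.39 to 0.56 and limma adjusted p from 0.00349 to 0.0403.

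NRG1 encodes neuregulin 1, which binds ERBB3 and ERBB4 and not EGFR (ENSG00000157168, chromosome 8 from 31639386 to 32767959, plus strand). It was at 7.76, 8.5 and 6.6 TPM in the controls and at 10.34, 10.59 and 10.37 TPM in the knockdown-labelled libraries. Each knockdown-labelled library was above each control, and their spread was far narrower than that of the controls. The mean rose by 36.9%, from 7.62 ± 0.958 to 10.4 ± 0.137 TPM (SD, n = 3 each). The limma estimate was 0.41 on the log2 scale (standard error 0.0874, adjusted p = 0.0120). The call held in 16 alternative fits (log2 fold change 0.33 to 0.49, limma adjusted p 0.00764 to 0.0410). NRG1 has 22 annotated transcripts in GENCODE 29, of which 18 are protein-coding, and a value per gene cannot tell which of them changed. Both receptors that bind neuregulin 1 directly were near 0 in these cells, with ERBB3 at 0.29 TPM or less and ERBB4 at 0.05 TPM or less.

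TGFA encodes transforming growth factor alpha, a ligand of EGFR (ENSG00000163235, chromosome 2 from 70447280 to 70554193, minus strand). It was at 7.03, 6.17 and 5.75 TPM in the controls and at 7.47, 6.81 and 15.09 TPM in the knockdown-labelled libraries. Knockdown replicate 3 stood far above the other 5 libraries, and knockdown replicate 2 lay within the range of the controls. The limma estimate was 0.48 on the log2 scale, and its 95% interval from -0.17 to 1.14 was the widest of the tested members (standard error 0.271, adjusted p = 0.214). Without knockdown replicate 3 it was 0.16 with a limma adjusted p of 0.293, so most of the difference in TGFA came from that library. Knockdown replicate 3 lay between the other knockdown-labelled libraries for HBEGF, EREG, BTC and NRG1. It was the lowest of its group for EGFR (19.85 TPM) and ERBB3 (0.02 TPM) and the highest for ERBB2 (1.09 TPM). Its correlations with the other libraries of its group, 0.977 and 0.978 over the genes tested, were close to the 0.979 of the remaining pair.

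**Figure D2:**
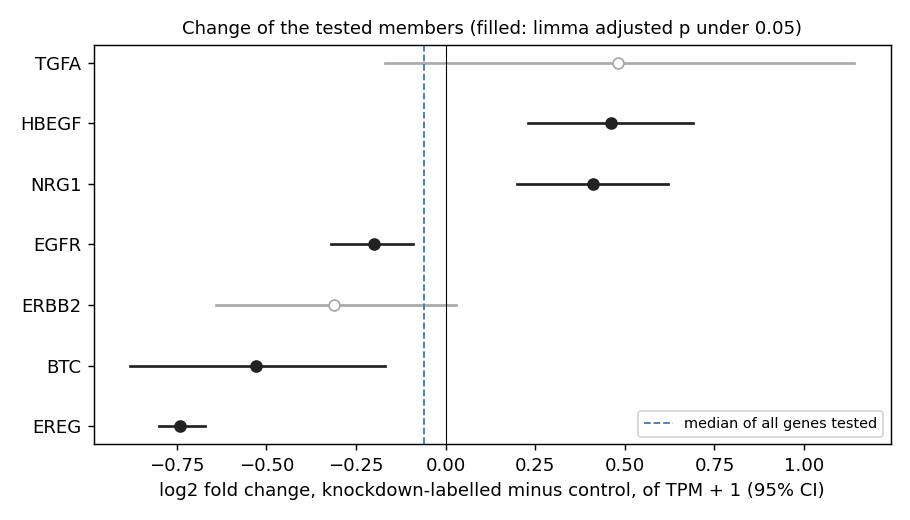
The log2 fold change of TPM + 1, knockdown-labelled minus control, is plotted with its 95% interval from limma for the 7 tested members, with filled points for an adjusted p under 0.05 and a dashed line at the median of all genes tested, -0.06. EREG, BTC and EGFR lie below 0 and HBEGF and NRG1 above it, while the intervals of ERBB2 and TGFA cross 0.

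Since EREG fell while HBEGF and NRG1 rose, the makeup of the ligand transcripts was compared as TPM within each library. The 6 ligands summed to between 90.6 and 91.7 TPM in the controls and between 67.9 and 78.3 TPM in the knockdown-labelled libraries. EREG made up 74.3% ± 0.781 of this sum in the controls and 55.5% ± 3.67 in the others (SD, n = 3 each). The share of HBEGF went from 8.71% ± 0.416 to 15.7% ± 1.7 and that of NRG1 from 8.36% ± 1.03 to 14.4% ± 1.06 (SD, n = 3 each). Shares of 1 sum depend on each other, so a fall of EREG by itself raises those of the other ligands. The library with high TGFA raised the share of that ligand to 19.3%, beside 9.53% in the lowest knockdown-labelled library and 6.31% to 7.76% in the controls. Without EREG the remaining 5 ligands summed to 22.6 to 23.9 TPM in the controls and to 28.2 to 38.0 TPM in the knockdown-labelled libraries. These sums are descriptions of chosen genes and carry no test. EREG was still the most abundant ligand in each knockdown-labelled library, with 3.22 to 4.07 times the TPM of HBEGF, where the controls had 8.18 to 8.74 times. Set against the receptor, the ratio of EREG to EGFR was 2.73 to 2.88 in the controls and 1.81 to 2.03 in the knockdown-labelled libraries, and that of HBEGF to EGFR was 0.313 to 0.348 and 0.446 to 0.615.

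By mean TPM, the order of the first 5 members was the same in both groups, namely EREG, EGFR, HBEGF, NRG1 and TGFA. EREG and EGFR were each separated from the next member by ranges that did not overlap. HBEGF and NRG1 overlapped in both groups, as did NRG1 and TGFA. HBEGF lay wholly above TGFA in the controls (7.65 to 8.37 against 5.75 to 7.03 TPM) and overlapped it in the knockdown-labelled libraries. BTC and ERBB2 overlapped in the controls, at means of 1.56 TPM for both, whereas in the knockdown-labelled libraries ERBB2, at 1.06 TPM, lay above BTC, at 0.77 TPM, without overlap. ERBB3 and AREG came last in both groups.

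The remaining receptor and ligands of the family, outside the chosen set, were ERBB4, EGF, EPGN, NRG2, NRG3 and NRG4. Of these 6, only NRG2, a neuregulin that binds ERBB3 and ERBB4, was tested, and it did not pass (1.82 to 2.29 TPM in the controls, 1.33 to 2.70 TPM in the knockdown-labelled libraries, log2 fold change -0.07, limma adjusted p = 0.792). EGF itself was at 0.37, 0.90 and 0.74 TPM in the controls and 0.55, 1.02 and 1.35 TPM in the knockdown-labelled libraries, which overlapped.

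Proteins that release the ligands were tested next, since the precursors act only after cleavage or on touching cells. Of 7 genes for ligand shedding, 2 rose, 1 fell and 4 did not pass, with a median log2 fold change of -0.01. Among all genes tested 12.1% were called higher and 24.0% lower. These counts, like those of the lists that follow, are descriptions and were not tested against that background. ADAM9 and ADAM12, both linked to the release of HB-EGF, rose from 70.9 ± 0.723 to 89.2 ± 1.43 TPM and from 53.6 ± 0.457 to 67.0 ± 1.61 TPM (SD, n = 3 each). Their log2 fold changes were 0.33 and 0.32 (limma adjusted p = 0.000202 and 0.000407). ADAM17, the main protease for most EGFR ligands, was at 13.67, 11.87 and 10.33 TPM in the controls and 9.57, 8.88 and 8.58 TPM in the knockdown-labelled libraries (-0.37 on the log2 scale, limma adjusted p = 0.0312). Its call was lost under median-of-ratios scaling (limma adjusted p = 0.0652), under quantile normalization (0.0583) and in 4 of the 6 fits with a single library removed. ADAM10, RHBDF1, RHBDF2 and FRMD8 did not pass, the last 3 being partners that ADAM17 needs for its transport and stability.

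Inhibitors of the receptors were mostly not called. Of 11 genes, 1 rose and 10 did not pass (median log2 fold change -0.02), where 36.1% of all genes tested were called. The gene that rose was ERRFI1, which encodes MIG6, a feedback inhibitor that binds the EGFR kinase. It was at 66.95, 66.99 and 67.69 TPM in the controls and 81.75, 81.13 and 83.96 TPM in the knockdown-labelled libraries, with no overlap (0.29 on the log2 scale, standard error 0.0253, limma adjusted p = 0.000354). With either other scaling SOCS5 passed as well, so that 2 of the 11 were higher. In the list of adaptors, which also holds enzymes such as the phospholipase of PLCG1, 9 genes were tested. SHC1 and PLCG1 fell, with log2 fold changes of -0.28 for both (limma adjusted p = 0.000887 and 0.00269). The remaining 7 did not pass, a share of lower genes close to the 24.0% of all genes tested. SHC1, which links the phosphorylated receptor to GRB2 and RAS, went from 151.2 ± 3.56 to 124.5 ± 3.68 TPM (SD, n = 3 each). GRB2 itself did not pass with TPM as deposited (log2 fold change 0.14, limma adjusted p = 0.116) and was higher with median-of-ratios scaling (0.21, adjusted p = 0.0365). Among 9 genes of receptor trafficking, STAM, which sorts ubiquitinated receptors at the endosome, and RAB7A, a GTPase of late endosomes, fell by 0.25 and 0.21 on the log2 scale (limma adjusted p = 0.00837 and 0.00026), and 7 did not pass, again close to the 24.0% lower of all genes tested. With either other scaling EPS15 passed as higher.

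Downstream of the receptors the changes went in both directions. Of the 10 genes of the RAS-ERK cascade, 3 fell and 3 rose (median log2 fold change 0.02), beside 24.0% lower and 12.1% higher among all genes tested. After either other scaling 2 were lower and 3 higher. The call of HRAS, higher by 0.11 on the log2 scale (limma adjusted p = 0.0322), was lost in 8 of 16 alternative fits, including the replicate block and 5 of the 6 with a single library removed. The kinase gene ARAF fell by 0.30 on the log2 scale, and NRAS rose by 0.25 (limma adjusted p = 0.00182 and 0.0026). Of 15 tested genes that ERK signalling is known to induce, 6 fell and 4 rose (median log2 fold change -0.05), with the same counts under either other scaling, beside 24.0% lower and 12.1% higher among all genes tested. ETV4, an ETS transcription factor, fell from 21.2 ± 1.36 to 11.8 ± 0.467 TPM, CCND1, which encodes cyclin D1, from 311.0 ± 1.26 to 214.7 ± 2.57 TPM, and DUSP6, a phosphatase of ERK, from 25.3 ± 1.23 to 18.7 ± 0.442 TPM (SD, n = 3 each). Their log2 fold changes were -0.80, -0.53 and -0.42 (limma adjusted p = 0.000177, 8.18e-06 and 0.000986). FOS, a subunit of AP-1 named here after its values were seen, rose by 0.41 on the log2 scale (limma adjusted p = 0.000857) and by 0.48 with either other scaling, where CCND1 was at -0.46 and -0.48 and DUSP6 at -0.35 and -0.34. TPM gives levels of RNA, and neither the phosphorylation of EGFR or ERK nor the release of ligands was measured here.

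**Figure D3:**
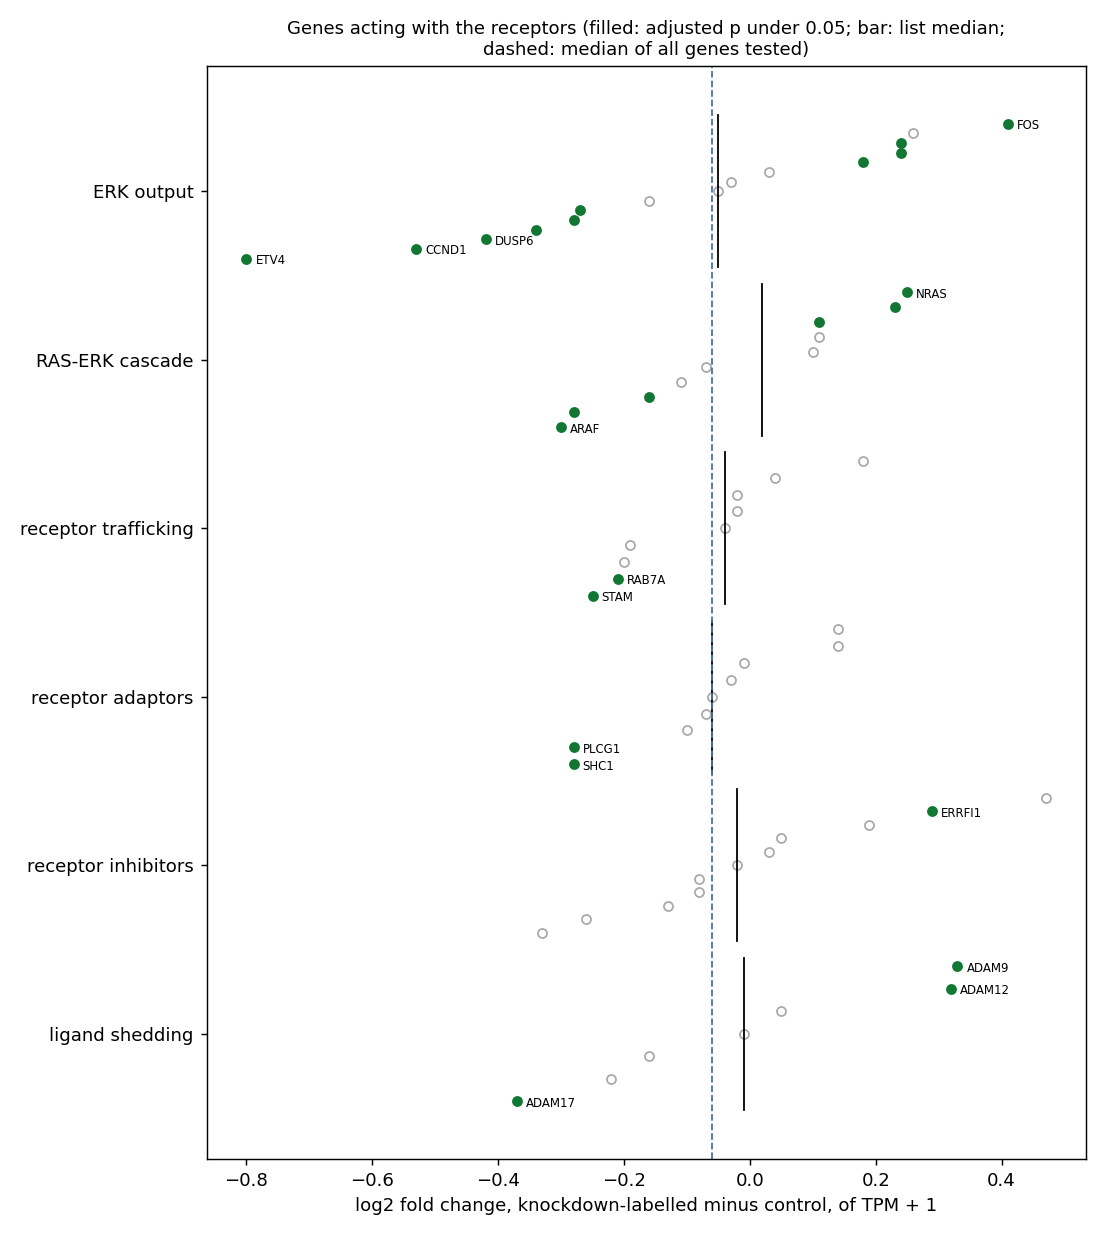
Each point is the log2 fold change of TPM + 1 (horizontal axis) of 1 tested gene in 6 lists of genes that act with the receptors (vertical axis). Filled points mark an adjusted p under 0.05, and names stand beside the called genes given in the text, except HRAS. A bar marks the median of each list and a dashed line the median of all genes tested, -0.06. The list medians lie between -0.06 and 0.02, and calls in both directions are seen for ligand shedding, the RAS-ERK cascade and ERK output.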

How the data were processed

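RNA of U87-MG cells was sequenced from 3 negative control and 3 knockdown-labelled libraries. The authors deposited TPM per gene and library, rounded to 2 decimals. The submitters' processing notes name fastp, RSEM and the genome build GRCh38.p13, and the aligner, the annotation, the strand setting and the filters are not given in the sources used here. The paper names TRIzol and a TruSeq kit, and the labels name an RNeasy and a SMARTer kit. Of 61541 Ensembl identifiers, 61369 had a symbol and 58366 were in GENCODE 29, from which coordinates (GRCh38) were taken.

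A linear model of log2(TPM + 1) on the group was fitted by limma 3.58.1 under R 4.3.3 (lmFit, then eBayes with its trend option) to 13722 genes whose mean reached 1 TPM, with Benjamini-Hochberg adjustment over all of them. Members under that limit were compared by an exact permutation test of TPM. The procedure was tested on simulated data. TPM keeps no depth, so no counting error or floor is given, and no test for counts was used.

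The members and the gene lists were chosen with earlier results of these data known. Genes were named by a rule: all members, the 3 largest changes among called genes of each list or else its most abundant gene, genes of at least 1 TPM that overlap a member or lie between CXCL8 and BTC, and the 3 genes closest in pattern to the member with the largest log2 fold change. Also named were genes whose calls changed with the scaling. Some genes of the RAS-ERK list are not reported here. Alternatives varied the pseudocount, the limit on low values, the scaling, the trend, a block for the replicate number, the call rule and each replicate left out. A planned comparison of protein sequences was not made.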

Additional observations from a re-analysis of the deposited data

How the results depend on the processing

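No member was called under an added log2 fold change limit of 1 (0 members by limma, with 5 at an unadjusted p under 0.05, and 256 of all genes), and 1 member, EREG, was called at an adjusted p under 0.01 (2839 of all genes). Quantile normalization left 3 members (1 lower, 2 higher) and 4462 of all genes (2229 lower, 2233 higher). The other settings gave 4 or 5 members, and the fits that each left out 1 library gave 4 members each and 3850 to 4210 of all genes. The median over the tested members, -0.205 on the log2 scale, was 0.413 with a limit of 5 TPM, where only 5 members were tested, -0.137 with median-of-ratios scaling and -0.122 with quantile normalization. These scalings moved the median of all genes from -0.060 to 0.004 and 0.002. EREG, HBEGF and NRG1 were called in each of 16 alternative fits, TGFA and ERBB2 in none, EGFR in 13 of 16 and BTC in 7 of 15. No member changed direction. With the replicate block 4 members and 4007 of all genes were called, and BTC was the member lost. The deviations of same-numbered libraries had correlations of -0.0198, 0.0341 and 0.0334, and not every library correlated best with its own number. Such small values from groups of 3 cannot decide whether same-numbered libraries share a culture or a batch. TPM gives no depth, and its lack limits most the low genes such as ERBB3 and AREG, whose counting error is unknown.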

Other observations

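Over the 13722 tested genes, the 3 whose log2(TPM + 1) followed EREG most closely across the 6 libraries were SYDE1 (Pearson's r = 0.9999), HSPA8, the constitutive heat shock protein HSC70 (r = 0.9999), and IL36B, an interleukin-1 family cytokine (r = 0.9998). SYDE1 was at 40.89 to 41.43 TPM in the controls and 28.54 to 29.15 TPM in the knockdown-labelled libraries. IL36B was at 326.8 to 333.3 and 61.33 to 66.28 TPM. With 2 groups of 3, such values mainly follow the difference between the groups, and 416 of the other 13721 genes had r above 0.99 with EREG. The points share libraries, and no p is given.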
